A study of Homo sapiens with 12 samples.

Results

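The genes described here are 10 enzymes and partner proteins that write, copy, remove or read out DNA methylation and the Polycomb mark: DNMT1, DNMT3A, DNMT3B, UHRF1, TET1, TET2, TET3, EZH2, SUZ12 and EED. They were taken by symbol from an mRNA table of 19659 genes and 83027 transcripts, and 49 of those transcripts belonged to them. The list was drawn up with earlier results of these data known. The cells were labelled HEL, an established human erythroleukaemia line, and their source is given as blood. The DMAG group had received DMAG at 40 µg/ml for 3 days. The control group is labelled only as control, with no dose, day or vehicle of its own. Each group had 3 RNA-Seq libraries and 3 small RNA libraries. Nothing in the labels says whether the 3 samples of a group came from separate cultures, so the p-values measure the spread between these samples, which may be technical.

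DNA methylation sits mostly on cytosines that are followed by guanine. DNMT3A and DNMT3B place it on unmethylated DNA, DNMT1 copies it onto the new strand after replication, and UHRF1 brings DNMT1 to newly copied sites. The TET enzymes oxidise methylcytosine, a step that leads to its removal. Polycomb repressive complex 2 (PRC2) methylates lysine 27 of histone H3: EZH2 is its catalytic subunit, and SUZ12 and EED hold the complex together, EED also binding the finished mark. DNMT3A, TET2 and the PRC2 genes are recurrently mutated in myeloid leukaemia.

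With DMAG, UHRF1 mRNA was 1.49-fold higher, EED 1.28-fold higher and DNMT3A 1.65-fold higher, and EZH2 was 1.12-fold lower. DNMT1, DNMT3B, TET1, TET2, TET3 and SUZ12 did not pass the test. The test was limma on log2(FPKM + 1) over 10394 genes, FPKM being fragment counts divided by transcript length and library size, here added up over the transcripts of a gene. A gene was called at a Benjamini-Hochberg adjusted p under 0.05. Of all genes tested, 48.6% were called, 22.4% as higher and 26.1% as lower, against 4 of the 10 described here (3 higher, 1 lower). That share lies near the background. The median log2 change was 0.05 over the 10 genes and -0.01 over all genes. Summed over all mRNAs, FPKM was 348907, 357821 and 356028 in control 1, 2 and 3. It was lower in every DMAG library, at 328350, 332916 and 329468, and the main test did not rescale for this. With libraries scaled to the same median, 4 of the 10 genes were called higher (UHRF1, EED, DNMT3A and DNMT1) and 0 lower. The calls of EZH2 and DNMT1 thus depended on the scale. A fit on equal sums was not run. The control and DMAG values did not overlap for 6 of the 10, against 59.5% of all genes. In bulk RNA, a smaller share of cells expressing a gene and less RNA per cell cannot be told apart.

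Within groups the RNA-Seq libraries correlated at 0.985 to 0.990 over the tested genes, and between groups at 0.959 to 0.963. Of 16 erythroid and megakaryocytic markers by which HEL cells are known, 13 lay below the tested level, and GP9 was at 0 in all 6 libraries. Their summed level was 4.46 to 5.10 FPKM in the controls and 5.66, 6.03 and 582 FPKM in DMAG 1, 2 and 3. The last value came from HBA1 (375 FPKM) and HBA2 (200 FPKM), alpha-globin genes that stood at or near 0 in the other 5 libraries. All 9 granulocyte markers were tested, with a summed level of 4076 to 4400 FPKM in the controls and 3243 to 3796 FPKM with DMAG. The markers thus go against the labelled line, and the cells are named here by their label only. Of the 9, 3 rose, 5 fell and 1 was not called (88.9% called, against 48.6% of all genes). The protease gene PRTN3 fell from 916 ± 61.0 to 227 ± 17.3 FPKM (limma, adjusted p = 3e-05). CLC, a gene of eosinophils and basophils, rose 1.64-fold (limma, adjusted p = 1.3e-04). EPX, another eosinophil gene, fell from 79.6 ± 0.928 to 39.1 ± 2.90 FPKM (limma, adjusted p = 8.1e-05). Of 6 monocyte markers 3 were tested, with a summed level over all 6 of 168 to 173 FPKM in the controls and 430.2 to 480.4 FPKM with DMAG. Of these, FCGR1A was 1.65-fold lower and ITGAM 2.99-fold higher (limma, adjusted p = 0.0049 and 1.3e-04), and LYZ, the lysozyme gene of monocytes and granulocytes, rose from 168 ± 2.61 to 444 ± 26.0 FPKM (limma, adjusted p = 2.5e-05). Of 6 lymphocyte markers 2 were tested, with a summed level over all 6 of 7.98 to 8.57 FPKM in the controls and 7.79 to 8.38 FPKM with DMAG. Their part in the results below was not tested. Means are given ± SD, with 3 libraries in each group (n = 3).

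Among the DNA methyltransferases, DNMT1 was by far the most abundant per length. DNMT1 (chr19:10133346-10194953; positions of genes are from RefSeq, GRCh38.p14) stood at 64.6, 61.9 and 61.8 FPKM in control 1, 2 and 3 and at 66.9, 66.2 and 69.7 FPKM in DMAG 1, 2 and 3. All DMAG values were above all control values, but the step was small. The mean went from 62.8 ± 1.59 to 67.6 ± 1.85 FPKM, a log2 difference of 0.11 with a 95% interval of 0.02 to 0.19 and a limma adjusted p of 0.0549. It passed without control 1 (log2 0.13, adjusted p = 0.0454) and when libraries were scaled to the same median (adjusted p = 0.0410).

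DNMT3A (chr2:25227874-25342590), one of the enzymes that set new methylation, was expressed near the low end. Its level was 1.17, 1.70 and 1.76 FPKM in the controls and 3.07, 2.62 and 1.97 FPKM with DMAG. The groups did not overlap, though DMAG 3 lay close to the highest control. The mean went from 1.54 ± 0.325 to 2.55 ± 0.550 FPKM, and the log2 change was 0.48 (SE 0.15, limma adjusted p = 0.0377, 95% interval 0.12 to 0.84). The call was lost without control 1 (adjusted p = 0.0945), control 2 (0.0637), control 3 (0.0538), DMAG 1 (0.104) or DMAG 2 (0.0965), and with no filter on low values (0.0609). The log2 change in the fits without 1 of these libraries was 0.37 to 0.54, and it was 0.60 without DMAG 3, where the call was kept (adjusted p = 0.0193). RefSeq lists a pseudogene of DNMT3A, DNMT3AP1, so reads may be shared.

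DNMT3B (chr20:32762385-32809356), the other enzyme for new methylation, stood at 2.26, 1.95 and 2.17 FPKM in the controls and 2.07, 2.43 and 2.35 FPKM with DMAG. The groups overlapped, and the log2 difference was 0.07 with a 95% interval of -0.11 to 0.25 (limma adjusted p = 0.469). In the controls DNMT3B was above DNMT3A in every library. With DMAG the order was reversed in DMAG 1 and 2 and not in DMAG 3. The log2 ratio of DNMT3A to DNMT3B was -0.95, -0.20 and -0.30 in the controls and 0.57, 0.11 and -0.25 with DMAG. The difference of 0.62 did not exceed the spread between samples (2-sided exact permutation test, p = 0.2; the smallest p that 3 against 3 allows is 0.1).

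UHRF1 (chr19:4903080-4962154), the adaptor of DNMT1, gave the clearest difference of the DNA methylation genes. It stood at 34.4, 37.2 and 37.0 FPKM in the controls and at 53.1, 57.4 and 50.9 FPKM with DMAG. The lowest DMAG value was well above the highest control. The mean rose from 36.2 ± 1.58 to 53.8 ± 3.29 FPKM, a log2 change of 0.56 (SE 0.06, limma adjusted p = 5.4e-04, 95% interval 0.42 to 0.70). UHRF1 was called in each of the 14 alternatives tried, with an adjusted p of at most 0.0142. DNMT1, which UHRF1 recruits, differed by 1.08-fold in the same libraries.

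The TET genes showed no call. TET2 (chr4:105145875-105279803) was at 17.5, 17.8 and 17.6 FPKM in the controls and 18.6, 18.2 and 17.3 FPKM with DMAG. The groups overlapped, with a log2 difference of 0.03 (95% interval -0.07 to 0.13, limma adjusted p = 0.578). TET3 (chr2:73983631-74135498) was at 15.9, 16.1 and 15.5 FPKM in the controls and 15.7, 15.1 and 15.7 FPKM with DMAG. It too overlapped, with a log2 difference of -0.03 (95% interval -0.12 to 0.07, limma adjusted p = 0.625).

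TET1 (chr10:68560337-68694487) was the least abundant of the 10, at 0.639, 0.660 and 0.642 FPKM in the controls and 0.449, 0.521 and 0.513 FPKM with DMAG. Every DMAG value was below every control value. The mean was 0.647 ± 0.0112 FPKM in the controls and 0.495 ± 0.0393 FPKM with DMAG, and the log2 difference of -0.14 (95% interval -0.30 to 0.02) had a limma adjusted p of 0.123. A pseudocount of 1 FPKM understates fold changes at this level: the ratio of the means was 1.31-fold. TET1 passed with no filter on low values (adjusted p = 0.0209) and with no mean trend in the variance (0.0312).

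On the FPKM scale as given, the PRC2 core moved in different directions. EZH2 (chr7:148807383-148884291), the catalytic subunit, stood at 51.9, 51.4 and 56.5 FPKM in the controls and 47.0, 49.3 and 46.4 FPKM with DMAG. The groups were separate, with control 3 the highest. The mean fell from 53.3 ± 2.83 to 47.6 ± 1.55 FPKM, a log2 change of -0.16 (SE 0.05, limma adjusted p = 0.0370, 95% interval -0.28 to -0.04). This call was lost without control 1 (adjusted p = 0.0517), control 3 (0.0830), DMAG 1 (0.0966) or DMAG 3 (0.1003). It was also lost with libraries scaled to the same median (0.0534), with no mean trend (0.0538) and when only the most abundant transcript was used (log2 -0.80, adjusted p = 0.200).

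EED (chr11:86244753-86287615), the subunit that binds the H3 lysine 27 mark, was at 17.9, 18.0 and 16.9 FPKM in the controls and 22.3, 22.1 and 23.3 FPKM with DMAG. All DMAG libraries were higher than all controls. The mean rose from 17.6 ± 0.596 to 22.6 ± 0.635 FPKM, a log2 change of 0.34 (SE 0.04, limma adjusted p = 0.0012, 95% interval 0.24 to 0.45). EED was called in each of the 14 alternatives, with an adjusted p of at most 0.0116. SUZ12 (chr17:31937007-32001038), the scaffold subunit, was at 48.0, 47.3 and 49.2 FPKM in the controls and 49.4, 48.3 and 47.5 FPKM with DMAG. Its groups overlapped, and the 95% interval of the log2 difference ran from -0.08 to 0.09 (limma adjusted p = 0.901). RefSeq lists 2 pseudogenes of SUZ12, 1 of them transcribed, and 1 each of EED and TET1, so reads of these genes may be shared too.

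**Figure D1:**
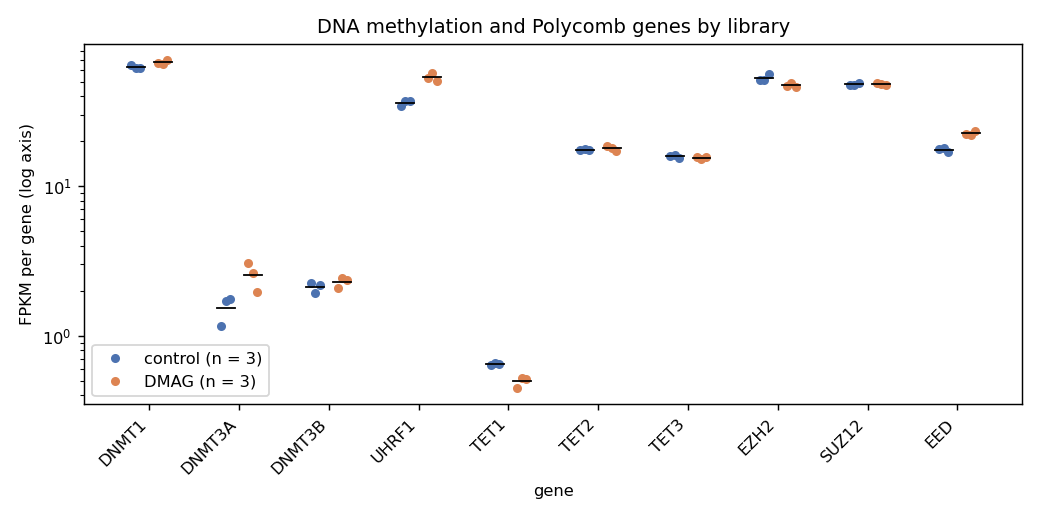
FPKM per gene (vertical log axis) for the 10 genes in each of the 3 control and 3 DMAG libraries, with a line at each group's mean. UHRF1 and EED lie higher in every DMAG library, EZH2 lies lower in every one, and TET1 is the lowest gene in both groups.

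Ordered by level per length, the controls ran DNMT1, EZH2, SUZ12, UHRF1, TET2, EED, TET3, DNMT3B, DNMT3A and TET1. Only TET2 and EED, at means of 17.6 FPKM each, overlapped as neighbours. With DMAG the order was DNMT1, UHRF1, SUZ12, EZH2, EED, TET2, TET3, DNMT3A, DNMT3B and TET1. Here SUZ12 overlapped EZH2, and DNMT3A overlapped DNMT3B. UHRF1 was below SUZ12 and EZH2 in the controls and above both with DMAG.

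**Figure D2:**
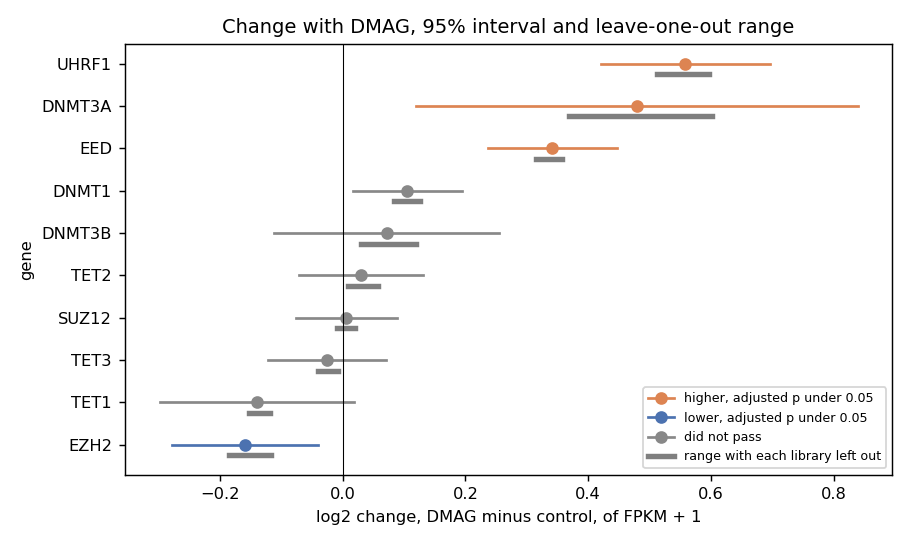
Log2 change of FPKM + 1 (DMAG minus control, horizontal axis) for the 10 genes, with the 95% interval of the limma fit and the range over fits that leave out 1 library each. The intervals of UHRF1 (0.42 to 0.70) and EED (0.24 to 0.45) lie farthest above 0.

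The table splits each gene into transcripts, and these values were far less even than the gene sums. Of the 49 transcripts, 35 were tested on log2(FPKM + 0.1) and 4 were at 0 in every library. A total of 3 were called higher, 0 lower and 32 did not pass, against 6.56% of the 38214 transcripts tested (2.95% higher, 3.61% lower). The coefficient of variation of DNMT1 over the controls was 2.54% for the gene and 32.3% for its leading transcript. For UHRF1 these values were 4.36% and 57.5%, and for DNMT3B 7.58% and 86.9%.

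The UHRF1 transcript ENST00000620565 stood at 9.32, 3.28 and 4.28 FPKM in the controls and 35.0, 18.0 and 33.3 FPKM with DMAG. The groups were separate, and its share of the gene's FPKM went from 15.8% to 54.3% (limma, log2 2.42, adjusted p = 0.0444). A second UHRF1 transcript, ENST00000615884, was at 10.4, 23.7 and 22.7 FPKM in the controls and 4.18, 34.8 and 5.97 FPKM with DMAG. In DMAG 2 it was the higher of the pair, and in DMAG 1 and 3 the lower. ENST00000622802 of UHRF1 went from 8.41 ± 2.41 to 3.09 ± 1.48 FPKM and did not pass (limma, log2 -1.48, adjusted p = 0.123).

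For DNMT3A, the transcript ENST00000264709 was more even than the gene: 1.08, 1.09 and 0.964 FPKM in the controls and 2.26, 2.09 and 1.88 FPKM with DMAG. The groups were well apart, and the log2 change was 0.92 (limma adjusted p = 0.0398). For EED, ENST00000351625 was at 4.67, 4.95 and 4.58 FPKM in the controls and 6.87, 7.78 and 6.63 FPKM with DMAG (limma, log2 0.57, adjusted p = 0.0374). The other 4 EED transcripts with a mean of at least 0.5 FPKM had log2 differences of 0.00 to 0.45 and did not pass. Leaving out any 1 library ended the calls of the DNMT3A transcript ENST00000264709 (limma adjusted p = 0.0848 to 0.125) and the EED transcript ENST00000351625 (0.0759 to 0.110). The call of UHRF1 ENST00000620565 was kept without control 1 (0.0309) and lost without any other single library. Without control 1, the UHRF1 transcript ENST00000624301, which was at 8.95 FPKM there and at 0 in the other controls, was called higher (log2 4.23, adjusted p = 0.0150).

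DNMT1 showed how unevenly the transcripts were assigned. Its leading transcript ENST00000340748 was at 51.3, 58.5 and 29.7 FPKM in the controls and 64.4, 62.6 and 64.3 FPKM with DMAG, while ENST00000359526 was at 11.9, 1.38 and 30.1 FPKM and then 1.298, 1.91 and 3.18 FPKM. Control 3 divided the gene about evenly between them, and neither passed (limma adjusted p = 0.350 and 0.427). For DNMT3B, ENST00000348286 was at 1.71, 1.56 and 0 FPKM in the controls and 2.05, 2.00 and 2.31 FPKM with DMAG. In control 3, where it was listed at 0, the DNMT3B value was assigned to other transcripts.

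Of the 6 EZH2 transcripts tested, 0 passed. ENST00000460911 was at 21.4, 17.3 and 26.5 FPKM in the controls and 6.08, 15.99 and 16.8 FPKM with DMAG, lowest in DMAG 1 (limma, log2 -0.86, adjusted p = 0.354). ENST00000320356 of EZH2 went from 9.37 ± 0.603 to 11.9 ± 2.29 FPKM, opposite in sign to the gene (limma adjusted p = 0.313). TET2, TET3, TET1 and SUZ12 had 0 called transcripts. The leading TET2 transcript ENST00000380013 went from 8.99 ± 0.375 to 9.89 ± 0.203 FPKM without overlap and did not pass (limma adjusted p = 0.373).

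**Figure D3:**
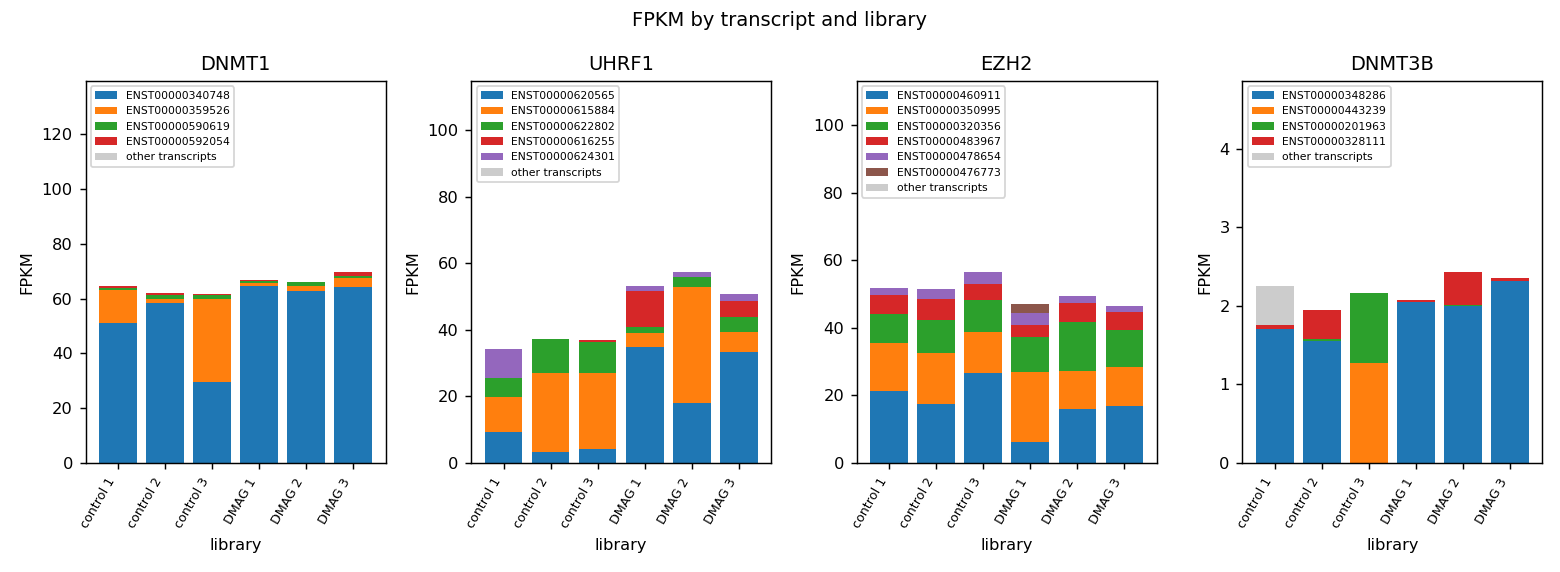
FPKM by transcript (stacked bars) in each of the 6 libraries for DNMT1, UHRF1, EZH2 and DNMT3B, 1 panel per gene. The height of a bar, the gene sum, varies little within a group, while the split between transcripts varies between libraries, as in DNMT1 in control 3 and UHRF1 in DMAG 2.

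The start regions of the genes differed in their number of CpG, the pair of bases that DNMT enzymes act on. RefSeq (GRCh38.p14) gave 22 windows of 250 bases before a start for the 10 genes, with a median of 23.5 CpG against 11 over 35114 windows of all genes. Of the 22, 6 belong to DNMT3A and in part overlap. The 3 UHRF1 windows had 28, 32 and 41 CpG, and the only DNMT3B window (chr20:32779602-32779851) had 3. All windows of UHRF1, DNMT3B and TET3 lie inside the listed gene span, as do some windows of DNMT3A, TET1, TET2 and EZH2. The stretch before the first base of UHRF1, DNMT3B or TET3 had no window, so its CpG were not counted. A search on both strands for TTTCCCGC, TTTGGCGC, TTTCGCGC and TTTGCCGC, forms of the site bound by E2F cell cycle factors, matched 3 of the 22 windows, against 2.79% of all windows. These were 2 of the 3 windows of UHRF1 and the window of SUZ12, so 2 of the 10 genes had a match. Median GC content was 73% in the windows of the 10 genes and 58% over all windows. The shares with a match were not compared at equal base content. The first UHRF1 window (chr19:4909251-4909500, plus strand, 28 CpG) and the EED window (chr11:86244503-86244752, plus strand, 11 CpG) are shown because these genes had the firmest calls, with the match in capitals. A match describes the letters only.
UHRF1: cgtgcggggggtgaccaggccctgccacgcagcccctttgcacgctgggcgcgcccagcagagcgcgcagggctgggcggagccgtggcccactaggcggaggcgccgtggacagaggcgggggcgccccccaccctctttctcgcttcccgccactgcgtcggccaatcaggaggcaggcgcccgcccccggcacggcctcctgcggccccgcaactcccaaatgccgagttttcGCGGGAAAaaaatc
EED: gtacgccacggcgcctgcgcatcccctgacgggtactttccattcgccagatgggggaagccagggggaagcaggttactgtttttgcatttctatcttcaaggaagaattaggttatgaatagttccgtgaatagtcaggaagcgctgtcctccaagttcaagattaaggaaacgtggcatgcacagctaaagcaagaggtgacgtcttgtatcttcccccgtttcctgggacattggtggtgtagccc
E2F2, a member of the E2F family, rose from 7.05 ± 0.0877 to 18.1 ± 0.448 FPKM in the same libraries (limma, log2 1.25, adjusted p = 2.4e-05). SUZ12, with a match in its window, was not called (log2 0.006), and EED was called higher with no match. Any link between E2F2, the matches and the mRNA values was not tested.

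The other PRC2 genes were read from a list of partners. Of 11 tested, 3 rose, 8 did not pass and 0 fell, and the median log2 change was 0.10. The share called was 27.3%, against 48.6% of all genes. JARID2, which helps bring PRC2 to DNA, was at 15.8, 16.3 and 17.1 FPKM in the controls and 24.3, 23.3 and 22.2 FPKM with DMAG (1.42-fold, limma adjusted p = 5.9e-04). RBBP4, a histone-binding subunit, rose 1.16-fold, from 59.6 ± 0.964 to 69.1 ± 2.22 FPKM (limma adjusted p = 0.0042). LCOR, a partner of 1 PRC2 form, rose 1.09-fold (limma adjusted p = 0.0363), a call that was lost without any single library other than DMAG 3 (adjusted p = 0.0689 to 0.102). MTF2, a DNA-binding partner, was at 19.7, 20.9 and 19.8 FPKM and then 32.2, 24.4 and 22.6 FPKM (limma adjusted p = 0.0561). MTF2 passed without DMAG 1 (log2 0.21, adjusted p = 0.0338) or DMAG 3 (log2 0.46, adjusted p = 0.0291).

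EZH1, the alternative catalytic subunit, was at 7.92 ± 0.626 FPKM in the controls and 8.57 ± 0.357 FPKM with DMAG and did not pass (limma adjusted p = 0.250). The log2 ratio of EZH1 to EZH2 was -2.72, -2.81 and -2.72 in the controls and -2.50, -2.55 and -2.37 with DMAG. All DMAG ratios were higher, by 0.28 on average, and the 2-sided exact permutation test gave p = 0.1, the smallest that 3 against 3 allows.

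Polycomb repressive complex 1 (PRC1) binds the PRC2 mark and ubiquitinates histone H2A. Of its 24 listed subunits 4 were higher, 7 lower and 13 not called, with a median log2 change of -0.12. The share called was 45.8%, near the 48.6% of all genes. CBX6, a reader of the PRC2 mark, was at 32.6, 33.2 and 32.2 FPKM in the controls and 19.4, 21.3 and 22.0 FPKM with DMAG, 1.56-fold lower (limma adjusted p = 2.8e-04). L3MBTL2 fell from 22.0 ± 0.523 to 15.3 ± 1.21 FPKM and RNF2, the catalytic ubiquitin ligase, from 15.2 ± 0.416 to 11.9 ± 0.406 FPKM (limma adjusted p = 0.0011 and 0.0019). PCGF3, which defines a variant PRC1, rose from 12.9 ± 0.566 to 17.4 ± 0.664 FPKM (limma adjusted p = 0.0012). When only the leading transcript was used, neither RNF2 (log2 -6.1e-05) nor PCGF3 (log2 0.28) passed. Of 5 tested genes for erasers of Polycomb marks and their partner proteins, 2 rose and 3 did not pass (40% called, against 48.6% of all genes). The partner gene ASXL2 rose 1.24-fold and the demethylase gene KDM6B 1.23-fold (limma adjusted p = 0.0020 and 0.0141).

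Among 7 tested genes listed as cofactors of DNA methylation, 4 fell, 0 rose and 3 were not called, with a median log2 change of -0.25. That is 57.1% called, against 48.6% of all genes (22.4% higher, 26.1% lower). USP7, a deubiquitinase that binds DNMT1 and UHRF1, was at 37.7, 39.6 and 40.1 FPKM in the controls and 33.1, 31.9 and 33.4 FPKM with DMAG (1.19-fold lower, limma adjusted p = 0.0031). CXXC1 was 1.29-fold lower (limma adjusted p = 0.0095). CDCA7, a partner of the remodeller HELLS, was at 67.5, 105 and 109 FPKM and then 58.3, 58.7 and 60.6 FPKM, with control 1 far below the other controls. It was called (limma adjusted p = 0.0287), but not without any single library other than control 1 (adjusted p = 0.0651 to 0.0839). TRDMT1, a DNMT-like RNA methyltransferase, was 1.33-fold lower (limma adjusted p = 0.0185) and was not called without control 1, control 2, DMAG 1 or DMAG 3 (0.0512 to 0.0582). DNMT3L, the cofactor of the DNMT3 enzymes, was at 0 in all 6 libraries. Of 7 methyl-CpG readers tested, MBD3 was called lower and MBD2 higher (limma adjusted p = 0.0410 and 0.0426). The share called was 28.6%, against 48.6% of all genes. MBD2 lost its call without any single library, and MBD3 without any except control 3.

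TET enzymes need 2-oxoglutarate, which isocitrate dehydrogenases make, and base excision completes demethylation. In that list, out of 13 tested genes, 6 fell, 1 rose and 6 did not pass, with a median log2 change of -0.18. The share called was 53.8%, near the 48.6% of all genes. GADD45A, linked to DNA demethylation, was at 3.22, 3.08 and 3.02 FPKM in the controls and 1.55, 1.87 and 1.54 FPKM with DMAG (1.88-fold lower, limma adjusted p = 8.8e-04). IDH2 fell 1.32-fold, from 40.0 ± 1.21 to 30.3 ± 1.29 FPKM, and IDH1 1.14-fold (limma adjusted p = 8.9e-04 and 0.0060). OGT, a sugar transferase that binds TET proteins, rose from 50.5 ± 0.736 to 61.4 ± 1.31 FPKM (limma adjusted p = 9.4e-04).

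The DNMT enzymes and EZH2 draw on S-adenosylmethionine. Of 8 tested genes of its cycle 3 rose, 3 fell and 2 did not pass (75% called, against 48.6% of all genes). MAT2A, which makes S-adenosylmethionine, fell from 240 ± 2.87 to 197 ± 5.95 FPKM, and AHCY, which clears the product of methylation, from 130 ± 3.65 to 101 ± 4.19 FPKM (limma adjusted p = 0.0012 and 9e-04). AHCYL1, an AHCY-like gene, rose from 31.4 ± 0.152 to 42.8 ± 0.580 FPKM (limma adjusted p = 1.6e-04), and AHCYL2 rose 1.45-fold.

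DNMT1, UHRF1 and EZH2 are expressed with the cell cycle, so 14 S-phase genes were read beside them. Of these 14, 4 were higher, 5 lower and 5 not called, and their median log2 change was -0.01. The share called was 64.3%, against 48.6% of all genes. E2F2 and TOP2A (1.25-fold) were among those that rose, and MCM4 (1.51-fold) and RRM2 (1.45-fold) among those that fell. The leading transcript of MCM4 went the other way (log2 0.90) and missed the threshold. The part of the cell cycle in the UHRF1 and EZH2 values was not tested.

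**Figure D4:**
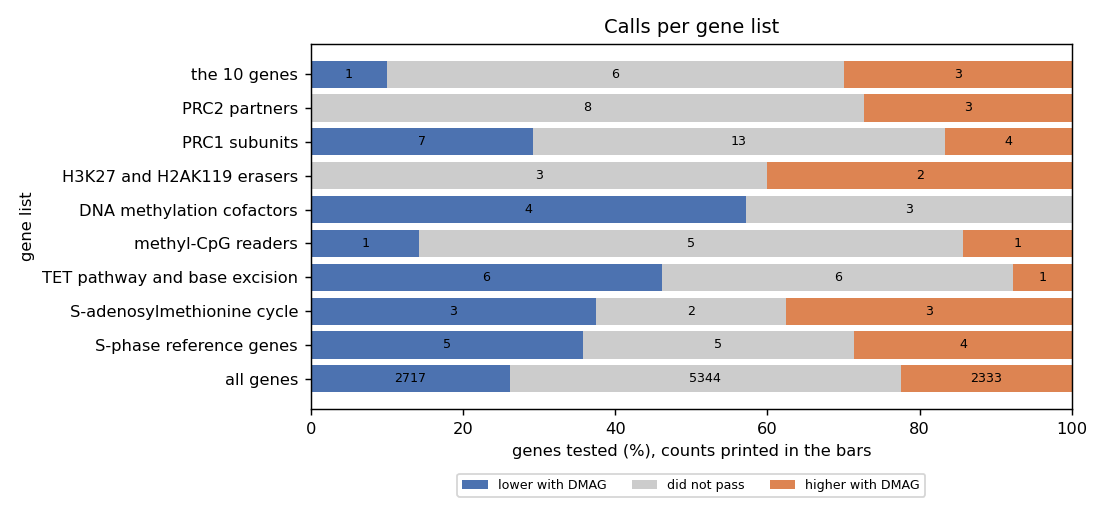
Share of tested genes (horizontal axis, %) called higher, called lower or not passed in each gene list, with the counts printed in the bars. The 10 genes have 3 higher and 1 lower, the listed DNA methylation cofactors have 4 of 7 lower, and PRC1 subunits have 4 higher and 7 lower. Over all genes tested, 22.4% were higher and 26.1% lower.

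Small RNA libraries from the same groups gave 25 microRNAs that are reported to target the 10 genes, counted by miRNA with 4303596 to 6003077 counts per library. A microRNA pairs through bases 2 to 8, the seed, with sites in an mRNA. The 3 members of the family of miR-148 and miR-152, reported regulators of DNMT1, are shown because all 3 were higher, and the miR-26 pair, reported for EZH2, because its members share a seed and moved apart. Sequences are mature miRNAs from RefSeq (GRCh38.p14), with the seed in capitals.
miR-148a-3p: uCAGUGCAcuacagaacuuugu
miR-148b-3p: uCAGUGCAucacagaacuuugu
miR-152-3p: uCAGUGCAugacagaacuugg
miR-26a-5p: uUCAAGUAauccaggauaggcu
miR-26b-5p: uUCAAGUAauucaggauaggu
The loci are chr7:25949922-25949943 (minus strand) for miR-148a-3p, chr12:54337278-54337299 (plus) for miR-148b-3p, chr17:48037174-48037194 (minus) for miR-152-3p and chr2:218402657-218402677 (plus) for miR-26b-5p. miR-26a-5p has 2 loci in the table.

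Values are CPM, counts scaled to a common library size after TMM normalization, tested with edgeR's quasi-likelihood test. Of the 25, 10 were higher with DMAG, 5 lower and 10 did not pass, against 45.3% of 583 miRNAs called (21.4% higher, 23.8% lower). With no scaling beyond the column total, 6 of the 25 were higher and 9 lower. Over all miRNAs that choice gave 79 higher and 207 lower in place of 125 and 139, and moved the median log2 change from -0.08 to -0.28. Directions below are relative to the TMM scale.

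miR-148a-3p was at 54660, 52161 and 53063 CPM in the controls and 123398, 114056 and 110256 CPM with DMAG. It was higher in all DMAG libraries, 2.17-fold by the group means (edgeR, log2 1.12, adjusted p = 2.5e-07). miR-152-3p was at 119.1, 128 and 139 CPM and then 574, 600 and 594 CPM, 4.58-fold higher (edgeR, log2 2.19, adjusted p = 3.9e-09). miR-148b-3p went from 7401 ± 298 to 9453 ± 212 CPM, 1.28-fold higher (edgeR, log2 0.35, adjusted p = 6.7e-04). These 3 were called in each of the 10 alternatives. Their log2 changes without scaling were 0.92, 2.00 and 0.16. In the same comparison the DNMT1 mRNA log2 difference was 0.11. The other reported regulators of DNMT1 were miR-342-3p, 1.23-fold higher (edgeR adjusted p = 0.0182; 0.0733 without DMAG 3), and miR-185-5p, which did not pass (0.183). Without scaling, miR-342-3p was not called (log2 0.11, adjusted p = 0.323) and miR-185-5p was called lower (log2 -0.30, adjusted p = 0.0014).

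For DNMT3A and DNMT3B, the miR-29 family had 1 call. miR-29a-3p went from 2363 ± 104 to 2103 ± 31.5 CPM (edgeR adjusted p = 0.0405), and the call was lost without any single library (adjusted p = 0.0722 to 0.642) and by DESeq2 (0.398). miR-29b-3p and miR-29c-3p overlapped between groups. miR-143-3p, reported for DNMT3A, went from 6061 ± 245 to 4974 ± 206 CPM, 1.22-fold lower (edgeR adjusted p = 0.0033).

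For EZH2, the miR-26 pair moved apart. miR-26a-5p was at 10574, 10439 and 10337 CPM in the controls and 13826, 14034 and 12388 CPM with DMAG (edgeR, log2 0.36, adjusted p = 0.0011). miR-26b-5p was at 6262, 5949 and 6697 CPM and then 4502, 4580 and 4253 CPM (edgeR, log2 -0.50, adjusted p = 9.1e-05). Both calls and directions held in the 10 alternatives. Of 9 let-7 miRNAs, which share the seed GAGGUAG, 4 were higher (let-7b, f, g and i), 2 lower (let-7c and d) and 3 did not pass. Without scaling let-7i remained higher (adjusted p = 0.0443), and let-7b, f and g did not pass (log2 0.14, 0.11 and 0.03). hsa-let-7g-5p was not called without control 1, control 2, DMAG 1 or DMAG 2 (adjusted p = 0.0871 to 0.157), nor hsa-let-7f-5p without control 1, control 2 or DMAG 1 (0.0691 to 0.0838). miR-101-3p, a reported regulator of EZH2, was at 9849 ± 495 and 9608 ± 298 CPM and did not pass (edgeR adjusted p = 0.661), but was called lower without scaling (log2 -0.23, adjusted p = 0.0036). The same held for the let-7 member miR-98-5p (adjusted p = 0.0517, and 4e-04 without scaling). miR-138-5p, also reported for EZH2, was at 1.64 ± 0.967 and 3.32 ± 0.968 CPM and did not pass (edgeR adjusted p = 0.0822; 0.0265 without control 1).

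For SUZ12, miR-200c-3p was at 154, 145 and 141 CPM in the controls and 404, 403 and 374 CPM with DMAG (edgeR, log2 1.43, adjusted p = 7.1e-08), while miR-200b-3p was at 6.10 ± 1.72 and 5.20 ± 2.19 CPM and did not pass. SUZ12 mRNA showed no call. miR-22-3p, reported for TET2, went from 214 ± 18.7 to 186 ± 15.2 CPM and did not pass (edgeR adjusted p = 0.0968), but was called lower without scaling (adjusted p = 0.0117).

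**Figure D5:**
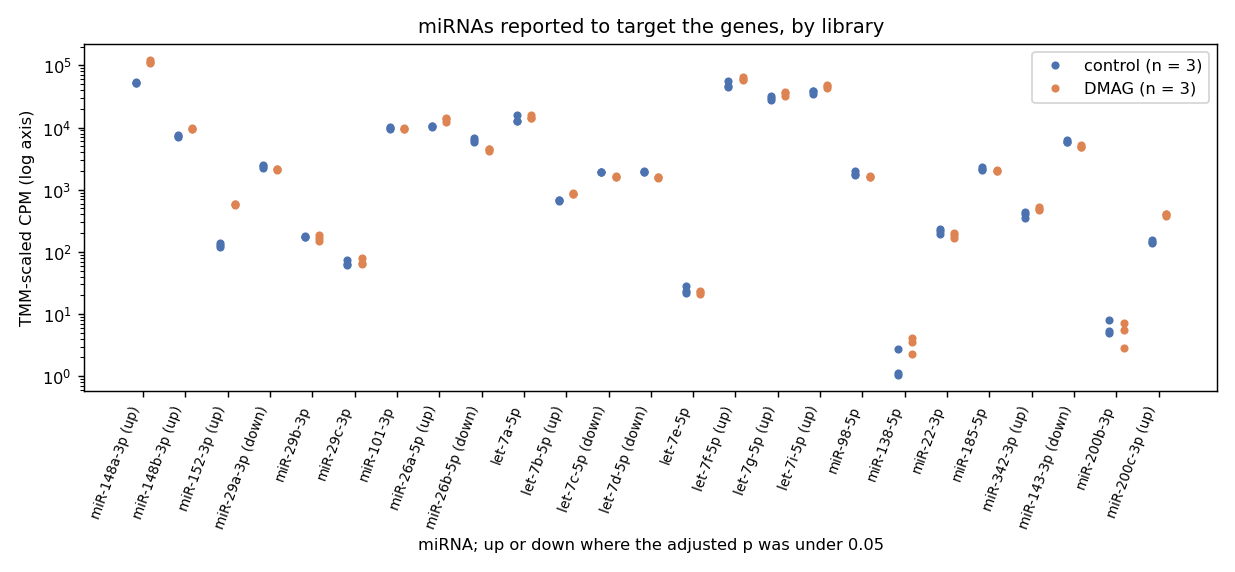
TMM-scaled CPM (vertical log axis) of the 25 miRNAs in the 3 control and 3 DMAG small RNA libraries, with those called marked up or down. miR-148a-3p, miR-152-3p and miR-200c-3p show the widest separation among the called miRNAs, and miR-26a-5p and miR-26b-5p separate in opposite directions.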

How the data were processed

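The authors deposited FPKM per transcript for mRNAs, and raw read counts and CPM values for miRNAs; per the submitters' processing notes HISAT2 2.0.4, Bowtie and StringTie 1.3.3 were used with GRCh38, with no roles named. How fragments were counted per transcript is not given in the sources used. FPKM was summed per gene and tested with limma 3.58.1 (R 4.3.3) on log2(FPKM + 1) with a mean trend, for genes whose mean reached 0.5 FPKM. Transcripts were tested on log2(FPKM + 0.1) with a mean of at least 0.1 FPKM. The deposited FPKM carry no read depth. miRNA counts were tested with edgeR 4.0.16 (TMM, filterByExpr, minimum count 10), with DESeq2 1.42.0 as an alternative, and the deposited CPM were not tested. The fits were tested on simulated data. The members and lists were chosen with earlier results of these data known. By the rule for names, the text names all members and may name their transcripts with a mean of at least 0.5 FPKM, listed miRNAs, DNMT3L, EZH1 and at most 4 tested genes per list with the smallest p. HBA1, HBA2 and GP9 were named to describe the markers. Some listed genes are not reported here. The lncRNA and circular RNA tables were not used, as no row could be tied to a member by name.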

Additional observations from a re-analysis of the deposited data

How the results depend on the processing

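Of 139 values of the 10 genes under alternatives, 118 kept their direction and side of the threshold, as did 256 of 290 for their transcripts, 208 of 250 for miRNAs and 628 of 711 for other listed genes. The count of genes called was 3354 when each gene was read from its most abundant transcript, in place of 5050. Leaving out 1 library gave 2 to 3 of the 10 genes called (2 without control 3 or DMAG 1), 1322 to 1682 transcripts in place of 2506, and 0 to 2 transcripts of the 10 genes, with fewer samples in each of these fits. Replicate numbers did not pair the libraries (correlation of same-numbered deviations -0.0048 to 0.0426 for mRNA and -0.0058 to 0.0234 for miRNA). With the replicate block, 2 of the 10 genes (UHRF1 and EED), 142 transcripts and 0 transcripts of the 10 genes were called.

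All reversals concerned values that did not pass the test, except MCM4, and the cause was not tested. Read from the most abundant transcript, the calls of CXXC1, KDM6B, IDH1, RRM2, AHCYL2, PBX3, CDCA7, MBD3 and MBD2 were also lost. With the most abundant transcript the log2 difference was -0.065 for MTF2, 0.88 for ASXL1 and 0.90 for MCM4. Scaling to the same median gave 0.0023 for TET3 ENST00000409262. Without scaling, miR-29c-3p (hsa-miR-29c-3p) gave -0.12 and let-7a-5p (hsa-let-7a-5p) -0.090. DESeq2 gave 0.0075 for hsa-miR-29b-3p and 0.035 for hsa-miR-101-3p. Leaving out 1 library, the log2 difference ranged from -0.0091 to 0.021 for SUZ12, -0.069 to 0.10 for CDKN2A, -0.15 to 0.051 for CDKN2C, -0.42 to 0.0055 for DNMT1 ENST00000590619, -0.89 to 0.051 for DNMT1 ENST00000592054, -0.045 to 0.40 for EED ENST00000263360, -0.047 to 0.087 for EED ENST00000527888, -0.27 to 0.18 for EZH2 ENST00000350995, -0.30 to 0.033 for EZH2 ENST00000483967, -0.35 to 0.17 for TET2 ENST00000514870, -0.14 to 0.046 for hsa-miR-29b-3p, -0.020 to 0.24 for hsa-miR-29c-3p, -0.055 to 0.094 for hsa-miR-101-3p, -0.16 to 0.0016 for hsa-let-7e-5p, -0.12 to 0.034 for hsa-miR-185-5p and -0.51 to 0.080 for hsa-miR-200b-3p.

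The DNMT3A to DNMT3B ratio could not be read from the most abundant transcripts, since that of DNMT3B is 0 in control 3. The circular RNA comparison and its alternatives were not run, because no row names a host gene.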

Other observations

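Most of the listed HOX and germline genes, known to be silenced by Polycomb or DNA methylation in many tissues, lay below the tested level. Of 23 HOX genes and partners, 13 were at 0 in all 6 libraries. PBX3, a HOX cofactor, rose from 2.84 ± 0.408 to 4.06 ± 0.0234 FPKM (limma, adjusted p = 0.0104). Of 25 germline genes that DNA methylation silences in somatic cells, 18 were at 0 throughout. MAGEB2 was the 1 that was tested, at 47.2 ± 1.54 and 49.2 ± 0.520 FPKM (limma, adjusted p = 0.222).

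Of 4 tested cell cycle inhibitor genes known as Polycomb targets, 0 were called, against 48.6% of all genes. CDKN2D was at 6.03, 4.74 and 4.50 FPKM in the controls and 7.53, 7.33 and 5.83 FPKM with DMAG (limma, adjusted p = 0.0502; 0.0224 without control 1 and 0.0276 without DMAG 3). CDKN2B was at 2.17 ± 0.179 and 2.66 ± 0.153 FPKM without overlap (limma, adjusted p = 0.0550), and CDKN2A at 13.7 ± 1.85 and 14.0 ± 1.18 FPKM (limma, adjusted p = 0.779).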
